A study of Homo sapiens with 6 samples.

Results

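In A549, a human cell line established from a lung adenocarcinoma, 46 protein-coding genes read lower after severe heat, with or without X-rays, than after any other treatment or none. These genes were chosen by their values on 6 arrays, 1 for each treatment: a gene entered the group when its higher value on the 2 arrays at 44 °C lay at least 0.4 below the lowest of the other 4 arrays on the log2 scale, a factor of 1.32. Only genes with a mean log2 value of 6 or more over the 6 arrays were considered, with 1 array feature per gene, and genes whose symbols begin with ZNF, KIF, CENP, RAD, XRCC or FANC were left out together with AOPEP, EXO1 and MCM10. The names removed 6 genes of the same pattern. The 46 genes were 0.861% of the 5341 protein-coding genes at that level, among 11916 protein-coding genes and 14884 named genes on the array.

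The control cells grew for 24 h at 37 °C, and how long they were then kept is not given. Cells of the IR group received 3 Gy of X-rays and spent another 3 h at 37 °C. The HT 41.5 and HT 44 groups were heated for 1 h at 41.5 °C or 44 °C and then returned to 37 °C for 3 h. The groups IR_HT 41.5 and IR_HT 44 were irradiated with 3 Gy directly after the same heating, and how long they were kept afterwards is not stated. The labels do not say whether separate cultures were used for the 6 arrays. A p-value therefore measures the spread among these arrays alone, and that spread may be technical.

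Cells heated beyond their growth temperature raise heat shock chaperones through the transcription factor HSF1, while transcription of many other genes pauses and splicing and rRNA processing slow down. When synthesis stops, a transcript with a short half-life disappears first, and a long-lived one can stay near its earlier level for hours. The nucleolus, where ribosomal RNA is made and ribosomal subunits are assembled, is among the compartments known to respond to heat.

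The deposited values are log2 signals that the authors normalized between arrays, with array medians over all features of 4.39 to 4.46. A value of this kind is relative to the rest of the RNA on the same array, so less RNA per cell and a lower share of the RNA cannot be told apart. Since probes differ in their response, levels are compared between arrays and never between genes. The 5 epithelial markers on the array read 11.43 to 11.59 (KRT18), 7.30 to 7.73 (KRT7), 6.28 to 6.83 (KRT8), 5.92 to 6.47 (EPCAM) and 4.33 to 4.54 (KRT19). Endothelial markers, 3 on the array, read 2.92 to 4.43, and 2 fibroblast markers 1.72 to 3.15. The 6 alveolar type 2 markers on the array were at 3.35 to 5.44. Of the 2 leukocyte markers, CD68 read 8.42 to 9.15 and CD14 4.89 to 5.81.

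The sequence before the start site is shown for L3HYPDH and GPR135, the 2 genes of widest gap, and for DOLK, whose gap of 0.57 was not among the widest. They are shown because 2 of them lie next to each other and 2 share their start region with an oppositely transcribed gene. L3HYPDH encodes an enzyme that dehydrates hydroxyproline, GPR135 is an orphan G protein-coupled receptor, and DOLK is dolichol kinase, which makes the lipid carrier of protein glycosylation. The sequences are from RefSeq (GRCh38.p14), read 5′ to 3′ on the minus strand that each gene is transcribed from. Capitals mark the GC box GGGCGG, the ETS motif CCGGAAG and the E-box CACGTG on either strand.
L3HYPDH, chr14:59484409-59484516, the 108 bases between its listed start and that of JKAMP: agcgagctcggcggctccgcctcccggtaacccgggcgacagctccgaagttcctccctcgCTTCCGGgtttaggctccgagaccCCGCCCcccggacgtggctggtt
GPR135, chr14:59465381-59465477, the 97 bases between its start and the end of L3HYPDH: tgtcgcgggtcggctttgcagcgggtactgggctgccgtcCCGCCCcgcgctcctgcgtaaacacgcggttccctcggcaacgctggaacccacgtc
DOLK, chr9:128947604-128947698, the 95 bases up to NUP188: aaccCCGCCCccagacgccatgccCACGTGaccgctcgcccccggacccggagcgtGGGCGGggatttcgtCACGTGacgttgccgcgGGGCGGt

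L3HYPDH had the widest gap of the group, 1.19 on the log2 scale. It read 7.69 in the control, 7.47 in IR, 7.95 in HT 41.5, 7.80 in IR_HT 41.5, 6.08 in HT 44 and 6.28 in IR_HT 44. Both arrays at 44 °C were far below the other 4, whose mean was 2.93-fold higher. GPR135, with a gap of 0.96, read 7.65, 7.24, 7.85 and 7.73 in the control, IR, HT 41.5 and IR_HT 41.5, and 6.07 and 6.28 in HT 44 and IR_HT 44, a 2.72-fold difference of means. The radiation-only array was the lowest of the 4 outside 44 °C for both genes. GPR135 starts 97 bases beyond the end of L3HYPDH on the same strand, and which transcript each probe reads was not tested.

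The oppositely transcribed neighbours did not share these values (they were looked up after the values of the group were seen). JKAMP, whose start faces that of L3HYPDH across the sequence above, read 8.25, 8.28, 8.33 and 8.26 in the same order and 8.24 and 8.21 at 44 °C. Its difference at 44 °C against 37 °C was -0.04 ± 0.08 (SE; limma adjusted p = 0.819). DOLK read 6.80, 6.81, 6.91 and 6.99, then 5.93 and 6.23 at 44 °C. NUP188, a nuclear pore protein gene transcribed away from DOLK, read 8.11, 8.03, 8.20 and 8.29, then 7.95 and 7.91. NUP188 differed by -0.14 ± 0.08 between 44 °C and 37 °C (adjusted p = 0.380) and by -0.31 ± 0.08 between 44 °C and 41.5 °C (adjusted p = 0.0345). In RefSeq, 17 of the 46 genes overlap another protein-coding gene and 29 do not. Of the overlapping genes, 14 that are no members were on the array, JKAMP among them, and at 44 °C against 37 °C 1 passed as lower and 2 as higher. Of all genes, 2.54% passed as lower and 3.57% as higher. METTL8, which overlaps DCAF17, was lower (-0.49 ± 0.13, adjusted p = 0.0489). HEATR4, which overlaps RIOX1, and CSRNP2, which overlaps LETMD1, were higher (0.59 ± 0.15, adjusted p = 0.0473, and 0.60 ± 0.11, adjusted p = 0.0120).

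Over the whole group the gaps ran from 0.41 to 1.19 with a median of 0.47. They reached 0.5 in 19 genes and 0.6 in 8. The mean of the other 4 arrays was 1.43 to 2.93 times the mean at 44 °C (median 1.61), and the difference was at least 2-fold for 3 genes, L3HYPDH, GPR135 and TRIM32. The median difference of the 46 between 44 °C and 37 °C was -0.61, against -0.06 for the 5341, and the difference between 44 °C and 41.5 °C had a median of -0.73. In the additive limma model, in which temperature and radiation enter as separate terms, 46 of 46 passed as lower in both contrasts, where 2.54% and 7.23% of all 14884 genes did and 3.57% and 4.9% passed as higher. The rule used these contrasts, so nothing is read from the calls.

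**Figure D1:**
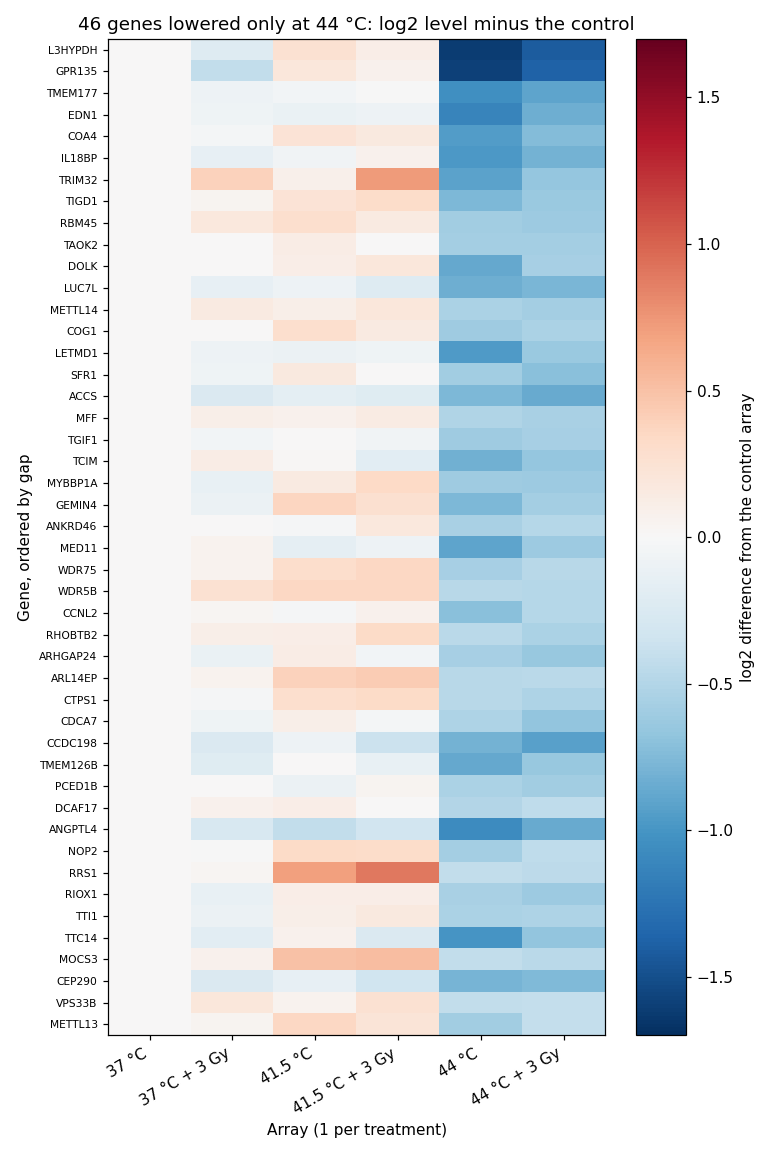
Log2 value of each of the 46 genes on each of the 6 arrays minus its value on the control array, as a colour scale; rows are ordered by gap. Both 44 °C columns are blue in every row, as the rule requires, while the columns at 37 °C with radiation and at 41.5 °C hold both colours; L3HYPDH and GPR135, at the top, have the deepest blue.

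The threshold did not fall at a natural break. Just inside it lay METTL13 with a gap of 0.410, VPS33B with 0.411 and CEP290 with 0.415. DKK1, a secreted Wnt inhibitor, missed it at 0.394, as did HMGXB3 at 0.392 and the mitochondrial factor MTERF4 at 0.390. DKK1 read 9.89 and 9.95 on the arrays at 37 °C, 9.5 and 9.59 at 41.5 °C and 9.06 and 9.11 at 44 °C, so that it was also lower at 41.5 °C than at 37 °C. The same rule turned upwards found 107 genes raised only at 44 °C, and applied to 41.5 °C it found 23 genes lowered only there.

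Genes of secretion and signalling included some of the widest gaps; this and the other groupings by role were made from textbook knowledge after the values were seen. EDN1 encodes endothelin 1, a vasoconstrictor peptide whose mRNA is known to be short-lived. It read 9.79 in the control, 9.71 in IR, 9.68 in HT 41.5 and 9.71 in IR_HT 41.5, which span little more than 0.1. In HT 44 it was at 8.68 and in IR_HT 44 at 8.96, a difference from 37 °C of -0.94 ± 0.09. IL18BP, a secreted decoy that binds interleukin 18, read 6.90, 6.77, 6.84 and 6.98 outside 44 °C and 5.93 and 6.11 at 44 °C. ANGPTL4, a secreted inhibitor of lipoprotein lipase, already had its highest value in the control: 7.67 there, 7.40 in IR, 7.25 and 7.35 at 41.5 °C, then 6.61 and 6.82 at 44 °C. Its 41.5 °C arrays lay below both 37 °C arrays, but the difference of -0.24 did not pass (limma adjusted p = 0.355). TAOK2, a stress-activated protein kinase, read 7.05 to 7.18 outside 44 °C and 6.48 on both 44 °C arrays.

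Among the members described by role, 5 encode mitochondrial proteins; the share of such genes among the 5341 was not counted. TMEM177, an assembly factor of cytochrome c oxidase, had the narrowest spread outside 44 °C of the 3 genes with the widest gaps, at 7.65 in the control, 7.57 in IR, 7.61 in HT 41.5 and 7.64 in IR_HT 41.5. At 44 °C it read 6.62 and 6.76, lower than at 37 °C by -0.92 ± 0.09. COA4, another cytochrome c oxidase assembly factor, read 7.28, 7.24, 7.51 and 7.44, then 6.33 and 6.54. TMEM126B takes part in building complex I and differed by -0.65 ± 0.11. MFF recruits the fission machinery to the outer membrane and differed by -0.58 ± 0.09. LETMD1 was lower by -0.76 ± 0.12, with the IR_HT 44 array at 6.16 above the HT 44 array at 5.83. No subunit of the respiratory chain or of the import machinery was in the group: of the list's 134 genes on the array, 106 were at the level required and 0 were members. In that list 3 genes passed as higher and 1 as lower at 44 °C against 37 °C, where 3.57% and 2.54% of all genes did. At 44 °C against 41.5 °C, 24 passed as lower and 2 as higher, where 7.23% and 4.9% of all genes did.

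Ribosome biogenesis was 1 of only 2 lists, of the 26 lists of functions examined, that held 3 or more members. Its members were RRS1, a nucleolar protein needed to assemble the large ribosomal subunit, NOP2, an rRNA methyltransferase, and WDR75, a small-subunit processome component that is needed for rRNA transcription. They were 6.12% of the 49 listed genes at the level required, where 0.861% of all such genes were members. RRS1 read 8.05 in the control and 8.08 in IR, rose to 8.75 in HT 41.5 and 8.94 in IR_HT 41.5, and stood at 7.62 in HT 44 and 7.60 in IR_HT 44. WDR75 read 9.29 and 9.35 at 37 °C, 9.59 and 9.65 at 41.5 °C, and 8.72 and 8.82 at 44 °C. NOP2 followed with 7.98 and 7.98, then 8.31 and 8.30, then 7.41 and 7.55. For each of the 3 the arrays at 41.5 °C were the highest and those at 44 °C the lowest.

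The whole list, its 3 members included, was looked at in the contrasts of temperature. Of 58 listed genes on the array, 15 passed as higher and 0 as lower at 41.5 °C against 37 °C. The median was 0.30, against -0.004 for all genes, of which 2.18% passed as higher and 1.1% as lower. For the 55 that are no members, 14 passed as higher and the median was 0.29. Among the 15 were NIP7 (0.72 ± 0.08), RRP12 (0.65 ± 0.10) and NOL6 (0.53 ± 0.09), which act in the processing of pre-rRNA (named after their values were seen). At 44 °C against 37 °C, 3 passed as higher and 4 as lower, 3 of these 4 being the members, and the median was -0.05. Of all genes, 3.57% passed as higher and 2.54% as lower, and their median was -0.04. NIP7 differed from 37 °C by -0.01 and RRP12 by -0.11 at 44 °C, and neither passed. NOP58, a core protein of box C/D snoRNPs, was higher by 0.75 ± 0.07. Between 44 °C and 41.5 °C, 24 passed as lower and 2 as higher, where 7.23% and 4.9% of all genes did. The rule used this contrast, and without the members 21 were lower. The 15 calls at 41.5 °C became 0 without the control array, 0 without the IR array and 0 without the intensity trend of the variances, and the 24 calls became 15 without the HT 41.5 array and 14 without the trend. The list was assembled partly by symbol patterns and also took in genes that are no ribosome factors, such as NOCT, a phosphatase, which was 1 of the 3 higher at 44 °C against 37 °C (0.58) and 1 of the 2 higher against 41.5 °C (0.59).

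Further members act in the nucleolus or on RNA. MYBBP1A, a nucleolar regulator of rRNA synthesis, read 7.78 and 7.66 at 37 °C, 7.94 and 8.13 at 41.5 °C, and 7.17 on both 44 °C arrays. GEMIN4, a subunit of the SMN complex that assembles spliceosomal snRNPs, went from 7.76 and 7.66 through 8.12 and 8.03 to 7.0 and 7.18. RIOX1, a nucleolar histidine hydroxylase, was lower at 44 °C by -0.52 ± 0.09. LUC7L, a U1 snRNP-associated factor, read 7.41 to 7.63 outside 44 °C and 6.80 and 6.86 there. RBM45, an RNA-binding protein, read 6.60 to 6.89 and then 6.01 and 5.98. METTL14, which pairs with METTL3 to write m6A on mRNA, read 7.24 in the control, 7.39 in IR, 7.34 in HT 41.5 and 7.43 in IR_HT 41.5, against 6.70 and 6.67. CCNL2, a cyclin tied to splicing, and MED11, a Mediator subunit, were lower by -0.61 ± 0.10 and -0.78 ± 0.09.

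In the list of splicing factors, 110 genes on the array, 3 passed as lower and 7 as higher at 44 °C against 37 °C. Of all genes, 2.54% passed as lower and 3.57% as higher. The members LUC7L and RBM45, chosen by a rule that used this contrast, were 2 of the 3, and 1 of the other 108 was lower. At 44 °C against 41.5 °C the same list had 19 genes passing as lower and 8 as higher, where 7.23% and 4.9% of all genes did. Without the members 17 were lower. The list of RNA modification enzymes, 72 genes on the array, had 8 genes passing as lower and 1 as higher at 44 °C against 37 °C. METTL14 and METTL13, which methylates a translation elongation factor, were 2 of the 8, and without these members 6 were lower. The list was drawn up for tRNA and rRNA enzymes and took both by their symbols. At 44 °C against 41.5 °C, 22 of its genes passed as lower and 1 as higher, and without the members 20 were lower.

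The other list with 3 members, centrosome and cilium, was mostly filled by symbol patterns such as CCDC, CEP and TTC, so its name is only a loose description. CEP290, a gatekeeper protein of the ciliary transition zone, read 6.92 in the control, 6.67 in IR, 6.77 in HT 41.5, 6.58 in IR_HT 41.5, 6.12 in HT 44 and 6.16 in IR_HT 44. CCDC198 read 6.99, 6.74, 6.90 and 6.62 outside 44 °C and 6.18 and 6.06 at 44 °C. TTC14 read 6.74, 6.55, 6.81 and 6.49, then 5.74 and 6.07. On all 3 genes each irradiated array outside 44 °C was below its unirradiated partner. Of 219 listed genes on the array, 20 passed as lower and 4 as higher at 44 °C against 37 °C, and without the members 17 were lower. Of all genes, 2.54% passed as lower and 3.57% as higher in this contrast. Among those outside the group, chosen after their values were seen, OFD1, a centriole and cilium gene, was lower at 44 °C than at 37 °C (-0.43) and than at 41.5 °C (-0.40). The ciliary genes BBS2 (-0.40) and WDR19 (-0.49) differed between 44 °C and 41.5 °C by only -0.03 and 0.02. The 4 that passed as higher included CCDC81 (2.14) and CCDC121 (1.11). The median of the list was -0.10, against -0.04 for all genes.

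Transcripts that are known to be short-lived passed in both directions at 44 °C. The list of short-lived regulatory transcripts, with 60 genes on the array, did not include EDN1 and held 1 member (2.22% of its 45 genes at the level required, where 0.861% of all such genes were members), TGIF1, a homeodomain repressor of TGF-beta signalling. TGIF1 read 7.03, 6.99, 7.03 and 6.97 outside 44 °C and 6.42 and 6.46 at 44 °C, a difference of -0.57 ± 0.09. Only TGIF1 and AMD1 (-0.37 ± 0.08, adjusted p = 0.0276), which makes the decarboxylated donor for polyamine synthesis, passed as lower at 44 °C against 37 °C. In that contrast 19 of the 60 listed genes passed as higher. Of all genes, 3.57% passed as higher and 2.54% as lower. The 19 included HBEGF (2.46 ± 0.12), a growth factor, the immediate-early genes SERTAD1 (2.10 ± 0.19) and IER5 (1.61 ± 0.13), and MCL1 (1.22 ± 0.08), an inhibitor of apoptosis. They became 11 without the control array and 9 without the IR array. The median of the list in this contrast was 0.18. At 41.5 °C against 37 °C, 13 passed as higher and 3 as lower, where 2.18% and 1.1% of all genes did. At 44 °C against 41.5 °C, 21 passed as higher and 12 as lower, where 4.9% and 7.23% of all genes did. The list of heat shock chaperones, 16 on the array, held 0 members, and 14 of its genes passed as higher at 44 °C.

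**Figure D2:**
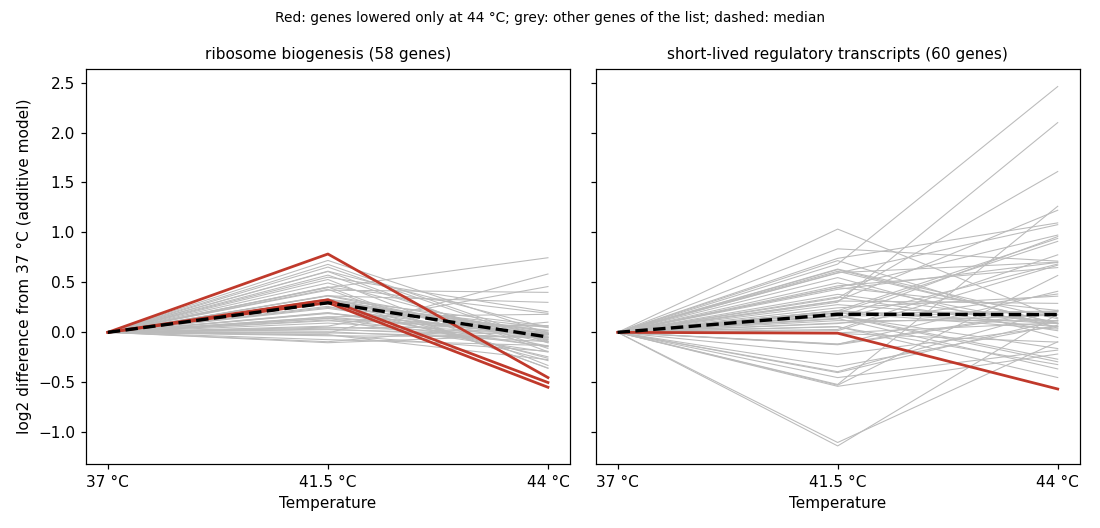
Log2 difference from 37 °C at 41.5 °C and 44 °C in the additive model for each gene of the ribosome biogenesis list (left) and of the list of short-lived regulatory transcripts (right). Red lines are genes of the group lowered only at 44 °C and grey lines the other listed genes. The dashed line is the median of the whole list, members included. The median of the ribosome list goes to 0.30 and back to -0.05, and that of the short-lived list stays at 0.18.

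Further members have roles in metabolism and membrane traffic. CTPS1, which makes CTP, read 9.28 and 9.26 at 37 °C, 9.56 and 9.61 at 41.5 °C, and 8.81 and 8.76 at 44 °C. MOCS3, which activates sulfur carriers for molybdenum cofactor synthesis and tRNA thiolation, read 6.37 and 6.44, then 6.87 and 6.89, then 5.95 and 5.92. ARL14EP went from 7.19 and 7.25 to 7.58 and 7.62 and then to 6.72 and 6.74. In these 3 genes the 2 arrays at each temperature lay close together. ACCS, by its name an aminocyclopropane-carboxylate synthase homologue, was highest in the control at 6.47, with 6.23 to 6.30 on the other arrays outside 44 °C and 5.71 and 5.61 at 44 °C. COG1, a subunit of a Golgi tethering complex, was lower at 44 °C by -0.57 ± 0.09, and VPS33B, which acts in endosomal fusion, by -0.51 ± 0.10.

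SFR1, which acts in homologous recombination, read 6.75, 6.68, 6.92 and 6.75 in the control, IR, HT 41.5 and IR_HT 41.5, and 6.16 and 6.05 in HT 44 and IR_HT 44. It was the single member from a list of DNA repair genes with 50 on the array. Of these, 6 passed as lower and 1 as higher at 44 °C against 37 °C, where 2.54% and 3.57% of all genes did. At 44 °C against 41.5 °C, 13 passed as lower and 1 as higher, where 7.23% and 4.9% of all genes did. The rule used both contrasts, and without SFR1 the genes passing as lower were 5 and 12. The symbols left out by the rule include many repair genes. TTI1, which stabilises kinases of the ATM and mTOR family, was lower by -0.48 ± 0.08. TIGD1, a gene derived from a DNA transposon, read 7.01 to 7.32 outside 44 °C and 6.24 and 6.38 there. TCIM, a small regulator of Wnt signalling, read 7.5, 7.63, 7.52 and 7.32 and then 6.68 and 6.84. The other 9 genes, CDCA7, WDR5B, ANKRD46, RHOBTB2, ARHGAP24, PCED1B, DCAF17, TRIM32 and METTL13, include TRIM32 and DCAF17 from the list of ubiquitin ligases and substrate receptors, 1.43% of its 140 genes at the level required.

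Mild heat was a question that the rule settled only in part. It bounds the arrays at 37 °C and 41.5 °C from below but sets no order between them. The bound removes genes that already fall towards their 44 °C level at 41.5 °C, as it did DKK1, and the 5341 genes are under no such bound. Part of any difference from their shares, here and in the calls below, may therefore be built in, and how much was not tested. Of the 46 genes, 35 were higher and 11 lower at 41.5 °C than at 37 °C, and the median difference was 0.09 (range -0.24 to 0.78) against 0.01 over the 5341 genes, of which 52.8% were higher. Both 41.5 °C arrays lay above both 37 °C arrays for 20 of the 46 (43.5%), where 31.1% of the 5341 did so. Both lay below for 3 (6.52%), EDN1, MED11 and ANGPTL4, against 26.9%. The groups overlapped for the remaining 23.

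After adjustment over 14884 genes, 4 of the 46 passed as higher at 41.5 °C and 0 as lower in limma. The 4 were 8.70% of the group, where 2.18% of all genes and 4.72% of protein-coding genes at the level required passed as higher, and 1.1% of all genes as lower. RRS1 rose by 0.78 ± 0.09 (adjusted p = 0.00152), MOCS3 by 0.47 ± 0.10 (adjusted p = 0.0328), ARL14EP by 0.38 ± 0.09 (adjusted p = 0.0442) and CTPS1 by 0.32 ± 0.07 (adjusted p = 0.0438). For these 4, both 41.5 °C arrays were above both 37 °C arrays. At an unadjusted p under 0.05 there were 14 of the 46 in either direction, where 17.1% of all genes lay. Other members of similar size were GEMIN4 (0.37 ± 0.10, adjusted p = 0.0741), GPR135 (0.34, adjusted p = 0.211), NOP2 (0.33 ± 0.08, adjusted p = 0.0679), MYBBP1A (0.31 ± 0.10, adjusted p = 0.118), L3HYPDH (0.30, adjusted p = 0.209) and WDR75 (0.30 ± 0.07, adjusted p = 0.0520), none of which passed. At the other end were ANGPTL4 (-0.24), MED11 (-0.15), TCIM (-0.14), CEP290 (-0.12) and CCDC198 (-0.11), and none of these passed either.

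These calls rested on few arrays. Leaving out the control array or the IR array left 0 of the 4, and leaving out HT 41.5 or IR_HT 41.5 left 1, RRS1; without either 44 °C array 7 members passed. RRS1 passed under 7 of 10 alternatives, with adjusted p from 2.60e-04 to 0.136, and the other 3 under 4 of 10 each, with values up to 0.363.

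**Figure D3:**
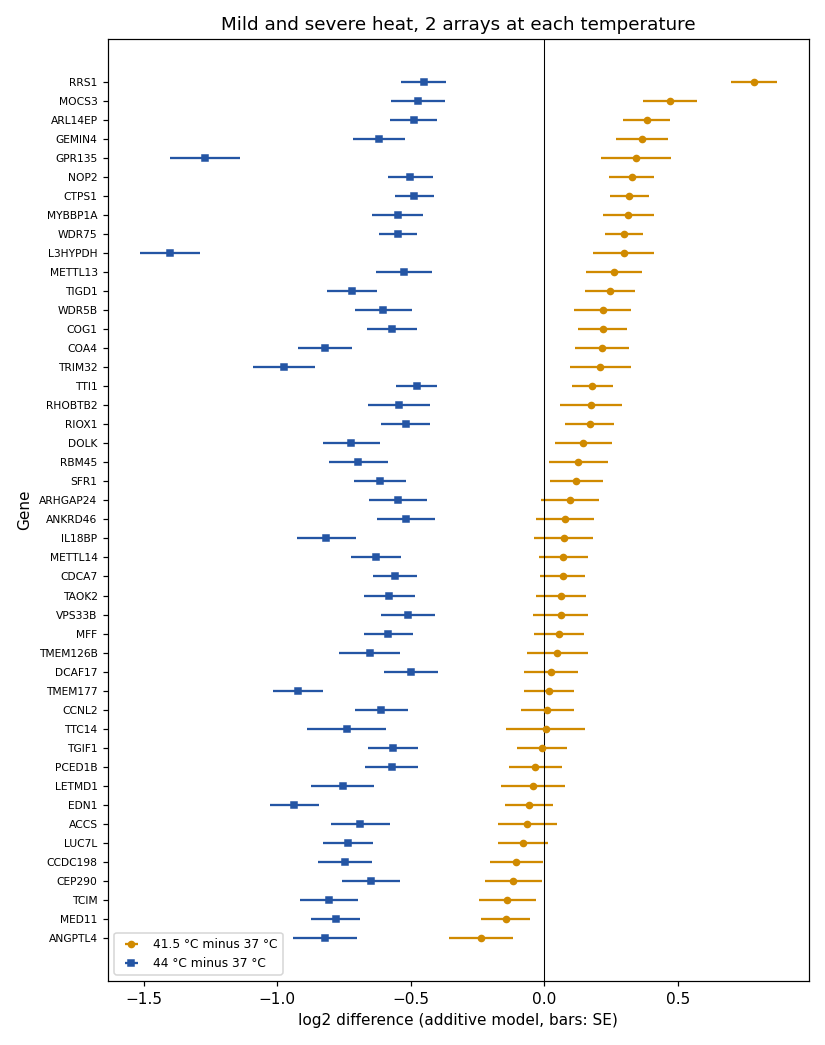
Difference from 37 °C of each of the 46 genes at 41.5 °C (orange circles) and at 44 °C (blue squares) on the log2 scale, from the additive model with SE bars; genes are ordered by the difference at 41.5 °C. The orange points run from -0.24 (ANGPTL4) to 0.78 (RRS1), with RRS1 apart from the rest, while the blue points run from -1.40 to -0.45, a side that the rule fixed.

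Radiation was the contrast that the rule did not use, with 3 irradiated arrays against 3 others. No gene passed for radiation: 0 of the 46 and 0 of 14884 (0% in each direction) had an adjusted p under 0.05 in limma, while 2 of the 46 and 4.92% of all genes had an unadjusted p under 0.05. The median difference of the group was 0.02 (range -0.21 to 0.43), with 28 genes (60.9%) higher and 18 lower after radiation; over the 5341 genes 48.9% were higher. For all genes the median SE of this difference was 0.113, so changes of that size could not be told from the spread. Larger changes could also fail to pass: TRIM32 differed by 0.43 ± 0.09 with a limma adjusted p of 0.609. The lowest adjusted p of any gene was 0.0562, and the lack of calls does not show that radiation had no effect.

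TRIM32, a ubiquitin ligase, had the largest radiation difference of the 46. It read 6.55 without and 6.94 with radiation at 37 °C, 6.64 and 7.27 at 41.5 °C, and 5.64 and 5.90 at 44 °C. The irradiated array was higher at each temperature, by 0.39, 0.64 and 0.26, and the difference in the model was 0.43 ± 0.09 (unadjusted p = 0.00103, adjusted p = 0.609). When only the 4 arrays at 37 °C and 41.5 °C were fitted, TRIM32 was 0.51 higher and passed (adjusted p = 0.0444). In the other direction CCDC198 was lower with radiation at each temperature, by -0.24, -0.28 and -0.12, and -0.21 ± 0.08 in the model (unadjusted p = 0.0252, adjusted p = 0.972). VPS33B, DOLK, MED11 and CCNL2 had the next highest differences, 0.12 to 0.13, and CEP290, ACCS, ARHGAP24 and SFR1 the next lowest, -0.13 to -0.12. None of them passed.

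Within a temperature, single arrays can be set side by side without a test. The irradiated array differed from its partner by a median of -0.01 at 37 °C (-0.41 to 0.39), 0.01 at 41.5 °C (-0.32 to 0.64) and 0.06 at 44 °C (-0.15 to 0.34). At 44 °C, 29 of the 46 (63.0%) read higher with radiation than with heat alone, against 60.9% of the 5341 genes. Radiation went with a higher value at all 3 temperatures for 9 genes (19.6%, against 12.4% of the 5341) and with a lower one at all 3 for 5 (10.9% against 11.7%).

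**Figure D4:**
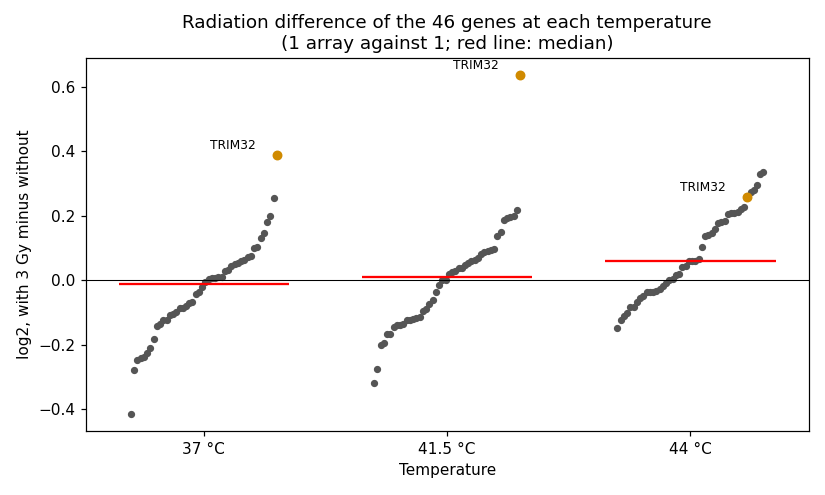
Log2 value of the irradiated array minus the unirradiated array at 37 °C, 41.5 °C and 44 °C, with a point for each of the 46 genes, sorted by value within a temperature, and a line at the median. The medians are -0.01, 0.01 and 0.06, and TRIM32 (orange) is at 0.39, 0.64 and 0.26.

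Some features of the genes lay outside the rule altogether. Their annotated span, from RefSeq, had a median of 16324 bases, against 33241 for the 5341 genes, and ranged from 1720 to 527517. Spans under 10000 bases made up 28.3% of the group and 18.7% of the comparison genes, and spans under 3000 bases 10.9% and 3.78%. The 5 shortest were RRS1, TCIM, DOLK, MED11 and RIOX1, at 1720 to 2462 bases. The genes lay on 17 chromosomes, with 7 on chromosome 2 (15.2%, against 6.95% of the 5341), 5 on chromosome 11 (10.9% against 5.73%) and 4 (8.70%) on each of chromosomes 8, 12, 14 and 17, which hold 3.65%, 5.52%, 3.28% and 7.26% of the 5341. L3HYPDH and GPR135 are among those on chromosome 14. No test was made of these shares.

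Upstream sequence, the 250 bases before a listed start in RefSeq, was found for 40 of the 46 genes, in 60 windows. The median GC content was 60.4%, against 65.2% in 6385 windows of comparison genes and 58% in all 35116 windows. The CCAAT box (CCAAT, either strand) was in 38.3% of the group's windows and 33.5% of the comparison windows, with 32.0% over all windows. The GC box (GGGCGG) was in 61.7%, against 67.2% and 42.6%. The ETS motif (CCGGAAG) was in 15% against 15.8% and 8.52%, and TATAAA in 8.33% against 5.40% and 10.7%. The E-box CACGTG was in 1 window, the DOLK stretch printed above that holds 2 of them, or 1.67% against 8.68% and 6.34%. A heat shock element of the form GAANNTTCNNGAA was in 1 window, that of IL18BP, 1.67% against 0.329% and 0.441%, and the AP-1 motif TGACTCA was in 0, against 2.30% and 4.20%. None of the motifs contains another, and several windows can belong to 1 gene.

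RHOBTB2, a ubiquitin ligase adaptor, was the only member with a second array feature, and the 2 went opposite ways. The feature that entered the group read 6.16, 6.26, 6.28 and 6.49 outside 44 °C and 5.71 and 5.62 at 44 °C. The other read 5.22, 5.45, 5.26 and 5.43 outside 44 °C and 6.01 and 5.88 at 44 °C, which was 0.60 higher. The gene overlaps TNFRSF10B and an antisense RNA in RefSeq, so RHOBTB2 is uncertain as a member.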

How the data were processed

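Total RNA from each of 6 A549 samples was hybridised to 1 Affymetrix array. The authors deposited log2 values, made by RMA in Affymetrix Expression Console 1.1 per the submitters' processing notes. RMA equalises arrays, which would hide a shift of all RNA. For the genome build of the probes, the sources used here give none.

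Of 53617 features, 16098 carry 1 gene symbol in the platform annotation and 37519 are unnamed here. For the 779 genes with several features the one with the highest mean was used. Biotypes, spans, neighbours and upstream sequences are from RefSeq (GRCh38.p14).

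Tests came from limma 3.58.1 in R 4.3.3: an additive model of temperature (2 arrays each) and radiation (3 against 3) over 6 arrays and 14884 genes, with variances moderated along an intensity trend, two-sided p-values and Benjamini-Hochberg adjustment over all genes. A gene passed at an adjusted p under 0.05. There are 2 residual degrees of freedom, which hold any interaction as well as noise. The fit was run on simulated data with changes added to the radiation term only, and the temperature contrasts were not checked in this way. The number of arrays limits the precision: the median SE was 0.138 between temperatures and 0.113 for radiation.

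The members, the 26 function lists and the rules were chosen with earlier results of these data known. Of the members, 19 are in a list and 27 in none, and 14 lists hold none. The text names by rule the 20 members of widest gap, members of lists holding 3 or more, the 5 highest and 5 lowest for radiation and for 41.5 °C, the 3 genes on each side of the threshold and members with another feature. Other names were chosen after their values were seen. Alternatives were other scalings, thresholds and feature rules, no trend, a level filter, fewer temperatures and leaving out each array.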

Additional observations from a re-analysis of the deposited data

Results flagged for a closer look

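For 4 members every array at 41.5 °C lay above both arrays at 37 °C with an adjusted p under 0.05 while every array at 44 °C lay below them: RRS1 (0.78 higher at 41.5 °C on the log2 scale), MOCS3 (0.47), ARL14EP (0.38) and CTPS1 (0.32). The side at 44 °C is fixed by the rule that chose the genes, and the difference between the 2 effects was not tested.

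The second array feature of RHOBTB2, which entered no comparison, read 0.60 higher at 44 °C than the mean of the other 4 arrays, opposite to the feature that made the gene a member.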

How the results depend on the processing

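The count of 46 members became 94 with a gap of 0.3, 8 with a gap of 0.6 and 21 with a mean of 7 or more, by the construction of the rule. It was 59 after quantile normalization (45 of the 46 shared), 47 after median centring (46 shared), 69 with no minimum level and 45 with the mean of a gene's features. Leaving out 1 array gave 46 to 107 members: 84 without IR, 72 without HT 44 and 107 without IR_HT 44. For radiation, 0 members passed under 10 of 11 alternatives and 1, TRIM32, in the fit of the 37 °C and 41.5 °C arrays. The 4 members higher at 41.5 °C became 1 after quantile normalization, 5 after median centring, 0 without the intensity trend, 7 when only genes with a mean of 6 or more were fitted, and 0 to 7 when 1 array was left out. Without 1 array, TCIM at 41.5 °C ranged from -0.3106 to 0.0339, reversed only without IR_HT 41.5. Chosen after seeing the data, the list counts were run under the same settings. The 15 ribosome genes higher at 41.5 °C became 0 without the trend, 24 with the level filter and 0 to 22 without 1 array (8 without HT 41.5 and 9 without IR_HT 41.5). The 24 lower at 44 °C against 41.5 °C became 14 without the trend and 15 to 21 without 1 array. The 19 short-lived transcripts higher at 44 °C became 9 to 21 without 1 array. The cause of these moves was not tested. Of 250 values of single genes under an alternative, 217 kept their direction and side of the threshold, 21 lost the call, 11 gained it and 1 reversed. The radiation term compares arrays within each temperature, and with 1 array in each group there was no replicate number to pair by. Signal limits the group: 26 protein-coding genes had the same pattern below a mean of 6, a count that includes symbols left out by the rule.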
